A study of Mus musculus with 9 samples.

Results

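The genes described here are 7 members of the muscle atrophy programme, namely the ubiquitin ligase genes Fbxo32 and Trim63, the FoxO transcription factor genes Foxo1, Foxo3 and Foxo4, the transcription factor gene Klf15, and Mstn, which encodes myostatin. They were taken as a list of symbols, and all 7 were found among the 23457 rows of the count table. The hearts came from 4 adult mice labelled as germline Parkin knockouts (KO) and 5 adult wild-type mice (WT), all on C57BL/6J, with no treatment in the labels. Parkin is a ubiquitin ligase that marks damaged mitochondria for removal, and a germline deletion removes it from every cell type and from all stages of life. No source used here gives the allele, the sex or the age in weeks. Poly(A) RNA of 1 heart was read in each library. The protocol names frozen ventricular apices while the tissue label says whole heart. Directions rest on the genotype labels.

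Fbxo32 (atrogin-1, an F-box subunit of a cullin ligase) and Trim63 (MuRF1, a RING ligase at the sarcomere) attach ubiquitin to muscle proteins and are known as markers of skeletal and cardiac muscle atrophy. FoxO factors switch on both genes when insulin and AKT signalling is low, because AKT phosphorylates FoxO proteins and adaptor proteins then hold them in the cytoplasm. Klf15 is induced by glucocorticoids and follows the circadian clock. In the heart it promotes lipid and branched-chain amino acid use and restrains hypertrophy. Myostatin is a secreted growth inhibitor of muscle that signals through activin receptors. FoxO activity is set largely on the protein, so transcript levels do not measure it.

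Promoter windows are shown for Trim63 and Klf15, whose windows held motifs of the regulators named above. The RefSeq table for GRCm38.p6 gave a window around the transcription start of 5 of the 7 genes, most of it upstream. It gave none for Fbxo32 and Foxo4, whose promoters were not searched. Capitals mark, in Trim63 on the forward strand of chr4:134314870-134315169, the glucocorticoid receptor half-site TGTTCT and directly after it the FoxO motif TGTTTAC. In Klf15, on the forward strand of chr6:90462326-90462625, they mark the E-box CACGTG, the motif bound by the clock factors CLOCK and BMAL1.
Trim63: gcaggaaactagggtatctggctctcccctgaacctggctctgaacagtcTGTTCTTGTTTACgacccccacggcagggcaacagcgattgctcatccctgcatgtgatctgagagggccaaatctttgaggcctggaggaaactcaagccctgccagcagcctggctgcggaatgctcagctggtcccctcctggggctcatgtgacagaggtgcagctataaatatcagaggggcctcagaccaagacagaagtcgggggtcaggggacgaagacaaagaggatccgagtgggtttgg
Klf15: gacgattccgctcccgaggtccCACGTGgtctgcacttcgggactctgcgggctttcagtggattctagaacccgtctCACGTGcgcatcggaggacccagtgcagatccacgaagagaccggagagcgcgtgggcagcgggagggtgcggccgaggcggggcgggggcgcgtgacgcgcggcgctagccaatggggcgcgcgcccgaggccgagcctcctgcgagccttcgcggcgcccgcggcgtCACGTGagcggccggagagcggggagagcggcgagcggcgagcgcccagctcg
The Trim63 half-site began 200 bases and its FoxO motif 194 bases before the start, and the motifs did not overlap. Klf15 had 3 E-boxes, beginning 228, 172 and 3 bases before the start. On both strands, TGTTTAC was in 3.65% of the 32817 promoter windows of the table, TGTTCT in 19.0% and CACGTG in 7.15%, and 0.0884% had at least 3 E-boxes. The windows of Foxo1, Foxo3 and Mstn held none of the 3 motifs. Only the exact half-site was searched, so the 19.0% is the share for a half-site alone, and longer glucocorticoid receptor sites were not assessed. A match describes the letters and does not show binding.

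Each heart had between 4415183 and 20827699 reads assigned to genes, and the shallowest were WT hearts 2 and 3. The hearts also differed in library make-up. Mitochondrially encoded transcripts took 10 to 15.4% of assigned reads in KO hearts and 32.6 to 58.2% in WT hearts. The log2 deviation of genes also followed transcript GC content, with slopes of 0.16 to 0.63 per 10 percentage points in KO hearts and -0.38 to -0.18 in WT hearts. For that reason each tested member is given a fold change as fitted to the counts. A second value has each heart's trends against GC content and transcript length removed. That second value also loses any difference between genotypes that follows GC content or length. For most list genes named below only the fold change as fitted is printed. With the trends removed many of those were smaller and some were larger. Cardiomyocyte markers were present in both groups, with 109193 to 120966 summed CPM (reads scaled to the size of the library) in KO hearts and 84172 to 94902 in WT hearts. Skeletal muscle markers summed to 47.7 to 56.2 CPM in KO hearts and 28.6 to 50.3 CPM in WT hearts, and 1 of 14 had no reads in any heart. Casq1 made up most of that sum, at 32.9 CPM in KO hearts and 29.0 CPM in WT hearts. The fast skeletal myosin genes Myh2 (14.3 CPM in KO hearts and 1.23 CPM in WT hearts, log2 fold change 3.82) and Myh4 (1.60 CPM in KO hearts and 0.467 CPM in WT hearts, 1.76) rose by edgeR both as fitted and with the trends removed. They were 2 of the 5 skeletal markers tested. Atp2a1 went the other way and passed as lower with the trends removed (0.999 CPM in KO hearts and 1.52 CPM in WT hearts, -0.88). Tnnt3, Tnnc2, Mylpf, Actn3 and Myh1 averaged below 1 CPM in each group and were not tested. Atrial markers summed to 30.7 to 48.9 CPM in KO hearts and 27.1 to 50.3 CPM in WT hearts. The part of library make-up and of these markers in the differences given below was not tested beyond the removal of the GC and length trends.

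Per length, in FPKM, Trim63 was the most abundant of the 7 transcripts in both genotypes. It averaged 139.9 ± 21.9 FPKM in KO hearts and 75.3 ± 8.97 FPKM in WT hearts (SD, n = 4 and 5), which put it at rank 551 of 23369 rows in KO hearts and 591 in WT hearts. In KO hearts Klf15 came next at 34.5 ± 5.06 FPKM, followed by Fbxo32 (23.5 ± 4.09 FPKM), Foxo3 (22.8 ± 3.37 FPKM) and Foxo4 (20.6 ± 2.02 FPKM). The ranges of these last 3 overlapped, and that of Klf15 lay above them. Foxo1 stood below them at 3.72 ± 0.202 FPKM. In WT hearts Fbxo32 held the second place at 18.6 ± 3.73 FPKM. Foxo3 (10.7 ± 2.65 FPKM), Klf15 (10.6 ± 3.05 FPKM), Foxo4 (7.44 ± 2.32 FPKM) and Foxo1 (3.96 ± 0.798 FPKM) followed in WT hearts, each with a range that overlapped its neighbour's. In FPKM, Klf15 therefore stood above Fbxo32 in KO hearts and below it in WT hearts. This order was not computed with the GC and length trends removed, so the switch is given for FPKM only. Mstn was the lowest in both genotypes, at 0.081 FPKM in KO hearts and 0.063 FPKM in WT hearts.

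**Figure D1:**
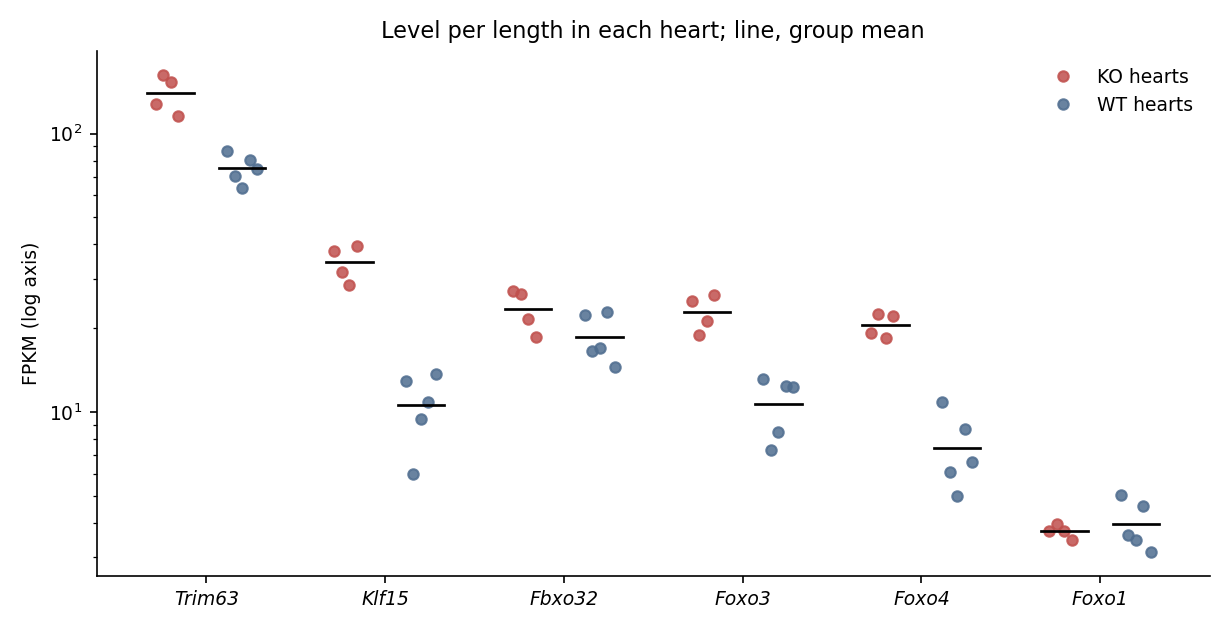
Level of each gene in each heart in FPKM (log axis), KO hearts left of WT hearts for each gene, with 1 point a heart. Trim63 stands above the other genes in every heart, and Foxo1 is the lowest of the genes other than Mstn by mean.

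The question put to these hearts was which cardiac transcripts differ with Parkin genotype. Of the 7 genes, 6 passed the filter on low counts. Klf15, Foxo4 and Foxo3 were higher and Foxo1 was lower in KO hearts by edgeR, so 4 of the 6 passed the test. Among all 12640 genes tested, 51.4% passed, 26.2% as higher and 25.2% as lower. The call of any 1 member is to be read against that background. With the trends removed Klf15 and Foxo4 passed as higher and Foxo1 as lower, 3 of 6, against 38.7% of all genes tested (19.0% as higher and 19.7% as lower). CPM values of Foxo1, Foxo4 and Klf15 did not overlap between the genotypes, as was the case for 41.6% of all genes tested.

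**Figure D2:**
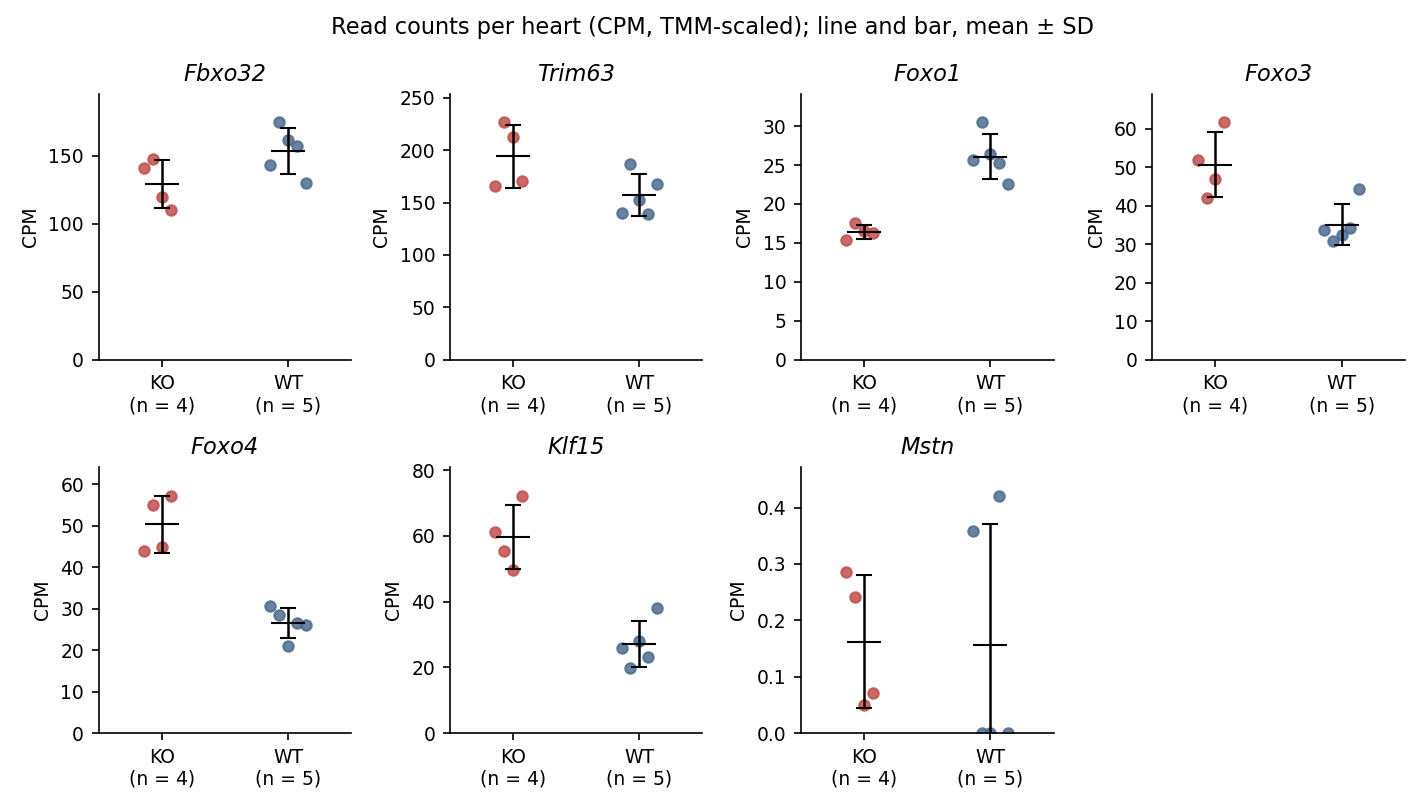
Read counts (TMM-scaled CPM) of each gene in each heart, 4 KO hearts left of 5 WT hearts, each axis starting at 0, with mean and SD as lines. The genotypes separate for Foxo1, Foxo4 and Klf15 and overlap for Fbxo32, Trim63, Foxo3 and Mstn.

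Foxo4 rose and Foxo1 fell, and Foxo3 rose as fitted but missed the threshold with the trends removed. Foxo4, at X:101254528-101260873 of GRCm38 on the forward strand, had 44.0, 55.1, 44.9 and 57.3 CPM in KO hearts 1 to 4, against 30.6, 28.4, 21.0, 26.5 and 26.1 CPM in WT hearts 1 to 5. Every KO heart lay above every WT heart. By edgeR's quasi-likelihood test Foxo4 rose 1.88-fold (log2 fold change 0.91 ± 0.14 (SE), adjusted p = 9.72e-05), and its log2 fold change with the trends removed was 0.48 ± 0.11 (adjusted p = 0.0036).

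Foxo1, at 3:52268336-52353221 on the forward strand, moved the other way. Its level was 15.4, 17.5, 16.5 and 16.2 CPM in KO hearts 1 to 4, against 25.6, 30.5, 26.4, 25.2 and 22.5 CPM in WT hearts 1 to 5. The KO hearts lay close together and all below the WT hearts. Foxo1 fell to 0.635 of the WT level by edgeR (log2 fold change -0.65 ± 0.13, adjusted p = 7.13e-04), with -0.45 ± 0.13 (adjusted p = 0.012) once the trends were removed. With nuclear reads thinned to 1845431 in each heart, Foxo1 missed the threshold at a log2 fold change of -0.45 (edgeR adjusted p = 0.259), in a fit where 23.1% of genes passed. Libraries did not keep strand, and Foxo1 shares 674 exonic bases with the antisense gene Gm20402, so reads from either strand there cannot be told apart.

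Foxo3, at 10:42181841-42276755 on the reverse strand, had 51.8, 42.1, 47.0 and 61.8 CPM in KO hearts 1 to 4, against 33.6, 30.9, 32.3, 34.2 and 44.3 CPM in WT hearts 1 to 5. The genotypes overlapped through WT heart 5, which lay above KO heart 2. Foxo3 was 1.44-fold higher in KO hearts by edgeR (log2 fold change 0.52 ± 0.14, adjusted p = 0.0070). With the trends removed the log2 fold change was 0.32 ± 0.13 and missed the threshold (adjusted p = 0.058), as did the value of 0.45 from thinned reads (adjusted p = 0.125). The value with the trends removed passed when KO heart 2 or WT heart 5 was left out, over a range of 0.25 to 0.41 for single hearts left out. Foxo6, the remaining FoxO gene of the mouse, had 48 to 53 reads in KO hearts and 14 to 62 reads in WT hearts. Its log2 fold change was -0.40 ± 0.24 (edgeR adjusted p = 0.185) and -1.49 ± 0.24 with the trends removed (adjusted p = 3.32e-04), and its transcript GC content of 69.1% lay above that of 99.95% of the tested genes.

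**Figure D3:**
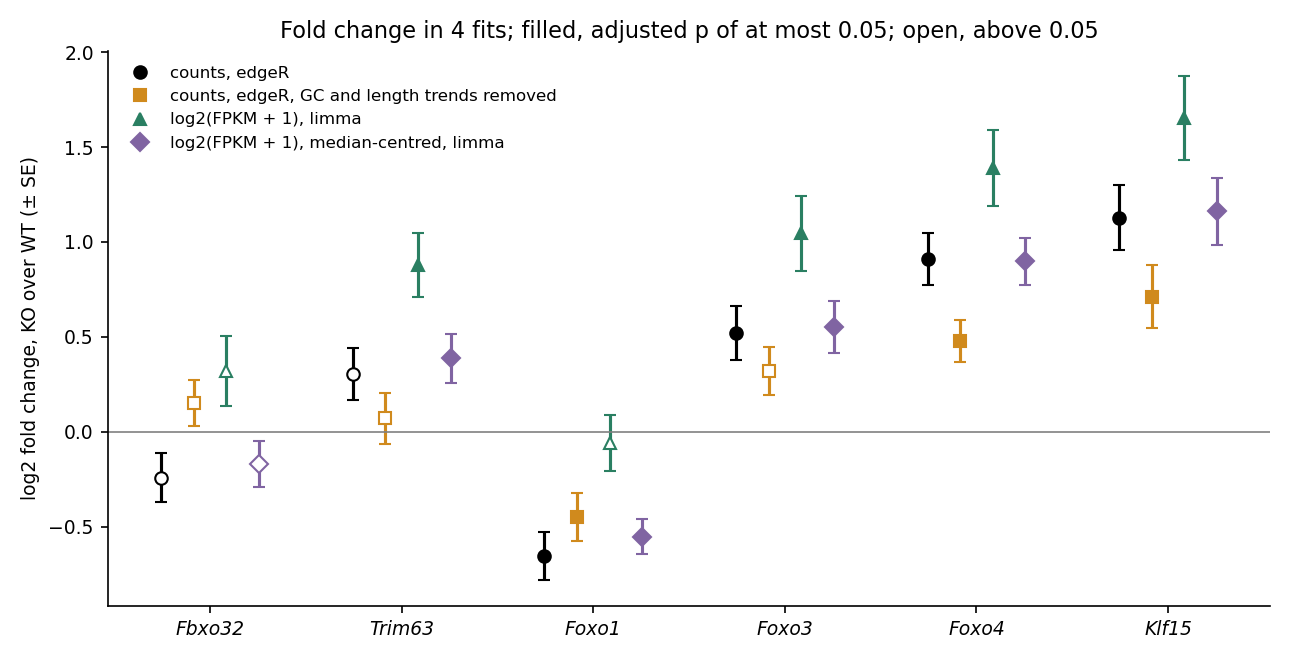
Log2 fold change, KO over WT, of the 6 tested genes as fitted to counts, with GC and length trends removed, in FPKM and in median-centred FPKM, with standard errors as bars and filled symbols for an adjusted p of at most 0.05. Klf15 and Foxo4 lie above 0 in each fit, Foxo1 lies at or below 0, and Fbxo32 changes side.

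A share within the FoxO family does not depend on how hearts are scaled to each other. Of the summed FPKM of Foxo1, Foxo3 and Foxo4, Foxo1 made up 7.77, 8.72, 8.62 and 6.69% in KO hearts 1 to 4, against 17.3, 21.3, 20.5, 17.9 and 14.2% in WT hearts 1 to 5. Foxo4 made up 40.1, 49.6, 42.5 and 42.6% in KO hearts 1 to 4, against 37.4, 35.9, 29.5, 33.9 and 29.9% in WT hearts 1 to 5. Neither share overlapped between the genotypes. The Foxo1 share was lower by 10.3 percentage points in KO hearts and the Foxo4 share higher by 10.4, each with a two-sided exact permutation p of 0.0079, the smallest that the splits of these 9 hearts can give, and an adjusted p of 0.016 over 4 measures. For Foxo3 the share was 48.3 ± 4.61% in KO hearts and 48.4 ± 4.97% in WT hearts (SD, n = 4 and 5, exact permutation p = 0.992). The shares of a heart add up to the whole. With the Foxo3 share nearly equal, the Foxo1 and Foxo4 differences mirror each other and are not independent results. Computed from counts per kilobase with the trends removed, the Foxo1 share was 9.25% in KO hearts and 16% in WT hearts, and the Foxo4 share was 60.0% in KO hearts and 53.4% in WT hearts (both with an adjusted exact permutation p of 0.032). The order of Foxo3 and Foxo4 within a heart thus depended on the unit, while the signs of these 2 differences did not.

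**Figure D4:**
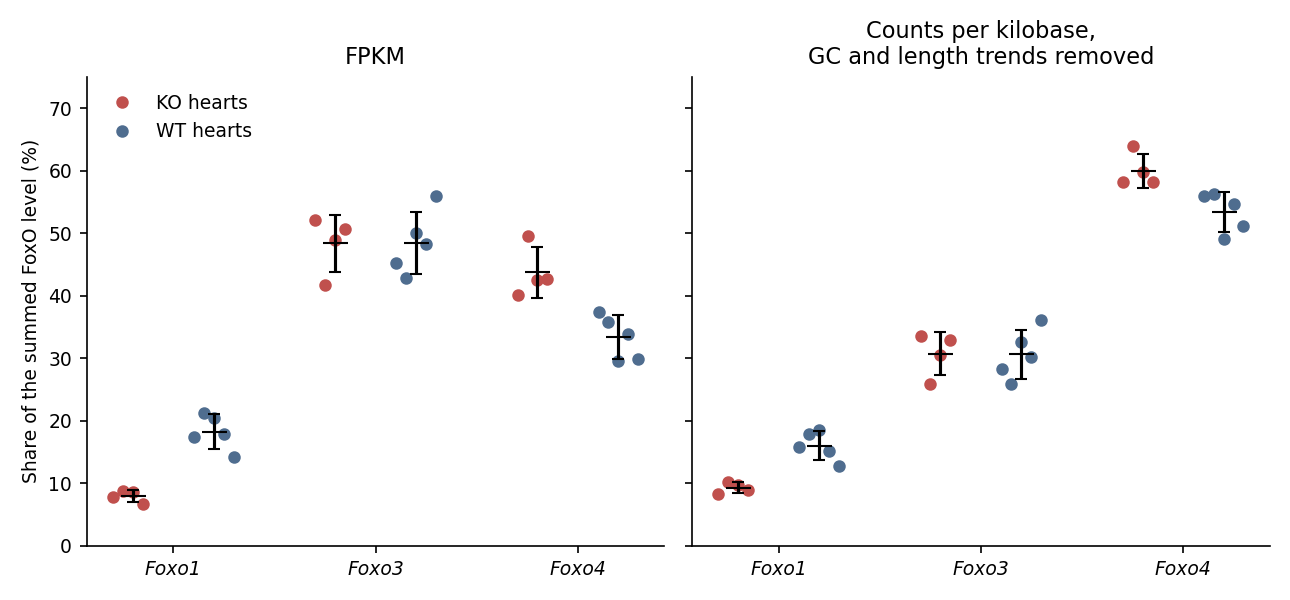
Share of Foxo1, Foxo3 and Foxo4 in their summed FPKM in each heart, in percent, KO hearts left of WT hearts. The Foxo1 share averages 7.95% in KO hearts and 18.2% in WT hearts, and the Foxo3 share 48.3% in KO hearts and 48.4% in WT hearts.

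Klf15 had the largest fold change of the members. Klf15, whose E-boxes are printed above, lies at 6:90462576-90475238 on the forward strand. It had 61.3, 55.3, 49.5 and 72.3 CPM in KO hearts 1 to 4, against 25.8, 19.8, 28.1, 23.2 and 38.2 CPM in WT hearts 1 to 5. All KO hearts lay above all WT hearts, and WT heart 5 came nearest. By edgeR it rose 2.19-fold (log2 fold change 1.13 ± 0.17, adjusted p = 1.07e-04). With the trends removed the log2 fold change was 0.71 ± 0.17 (adjusted p = 0.0043), and the genotypes then overlapped, with a lowest KO value of 42.0 CPM and 43.7 CPM in WT heart 5.

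Neither atrophy ligase passed the test on counts. Fbxo32, at 15:58175879-58214932 on the reverse strand, had 141, 148, 119 and 110 CPM in KO hearts 1 to 4, against 143, 175, 161, 157 and 130 CPM in WT hearts 1 to 5. The ranges overlapped. Its log2 fold change was -0.24 ± 0.13 by edgeR (adjusted p = 0.131) and had the opposite sign, 0.15 ± 0.12, with the trends removed (adjusted p = 0.336). Of its exonic bases, 186 are shared with the antisense gene Gm15943.

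Trim63, whose FoxO motif and glucocorticoid half-site are printed above, lies at 4:134315120-134329629 on the forward strand. It had 166, 227, 213 and 171 CPM in KO hearts 1 to 4, against 140, 187, 153, 139 and 168 CPM in WT hearts 1 to 5. The ranges overlapped through KO hearts 1 and 4 and WT hearts 2 and 5. The log2 fold change was 0.31 ± 0.14 by edgeR (adjusted p = 0.072) and 0.07 ± 0.13 with the trends removed (adjusted p = 0.710). The first value passed when KO heart 1, KO heart 4 or WT heart 2 was left out, within a range of 0.23 to 0.38 for all 9 hearts, and by limma-voom (0.41, adjusted p = 0.0058), by which 58.1% of genes passed.

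The ligases differed in relation to each other in FPKM but not once the trends were removed. The log2 ratio of Fbxo32 to Trim63 was -2.58 ± 0.249 in KO hearts and -2.03 ± 0.211 in WT hearts (SD, n = 4 and 5, exact permutation p = 0.024, adjusted p = 0.032). From counts per kilobase with the trends removed it was -2.10 in KO hearts and -2.18 in WT hearts (adjusted exact permutation p = 0.878).

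Mstn, at 1:53061640-53068079 on the forward strand, had 6, 4, 1 and 1 reads in KO hearts 1 to 4, against 8, 0, 0, 6 and 0 reads in WT hearts 1 to 5. It was near the limit of detection in both genotypes and did not pass the filter. A count of 0 allows up to 1.04, 0.888 and 0.348 CPM in WT hearts 2, 3 and 5, by counting error alone. Without the filter its edgeR log2 fold change was -0.52 ± 0.74 (adjusted p = 0.603), so a difference of Mstn was not detectable at this depth.

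Fold changes in FPKM were shifted upwards for genes in general. On the log2(FPKM + 1) scale the median over the tested genes was 0.44, against -0.0059 for counts, and 53.3% of genes passed by limma, 47.2% as higher and 6.09% as lower. Klf15 (1.65 ± 0.22, adjusted p = 3.07e-04), Foxo4 (1.39 ± 0.20, adjusted p = 3.86e-04), Foxo3 (1.05 ± 0.20, adjusted p = 0.0013) and Trim63 (0.88 ± 0.17, adjusted p = 0.0014) lay above that median and passed. Fbxo32 (0.32, adjusted p = 0.161) and Foxo1 (-0.06, adjusted p = 0.755) lay below it and did not. After median-centring of each heart, Foxo1 passed as lower (-0.55, adjusted p = 0.0010) and Trim63 as higher (0.39, adjusted p = 0.028), while Fbxo32 was at -0.17 (adjusted p = 0.247). In that fit 53.9% of genes passed.

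The members lay on both sides of the median GC content. Klf15 (54.9%), Foxo4 (55.2%), Foxo3 (53.2%) and Trim63 (52.4%) lay above the median of 49.9% over the tested genes, and Foxo1 (48.5%), Fbxo32 (45.8%) and Mstn (38.1%) below it. Across genes, which are not independent replicates, fold change and GC content had a Spearman rho of 0.59. Removal of the trends moved the log2 fold change of each of the 6 tested members towards 0 or across it.

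**Figure D5:**
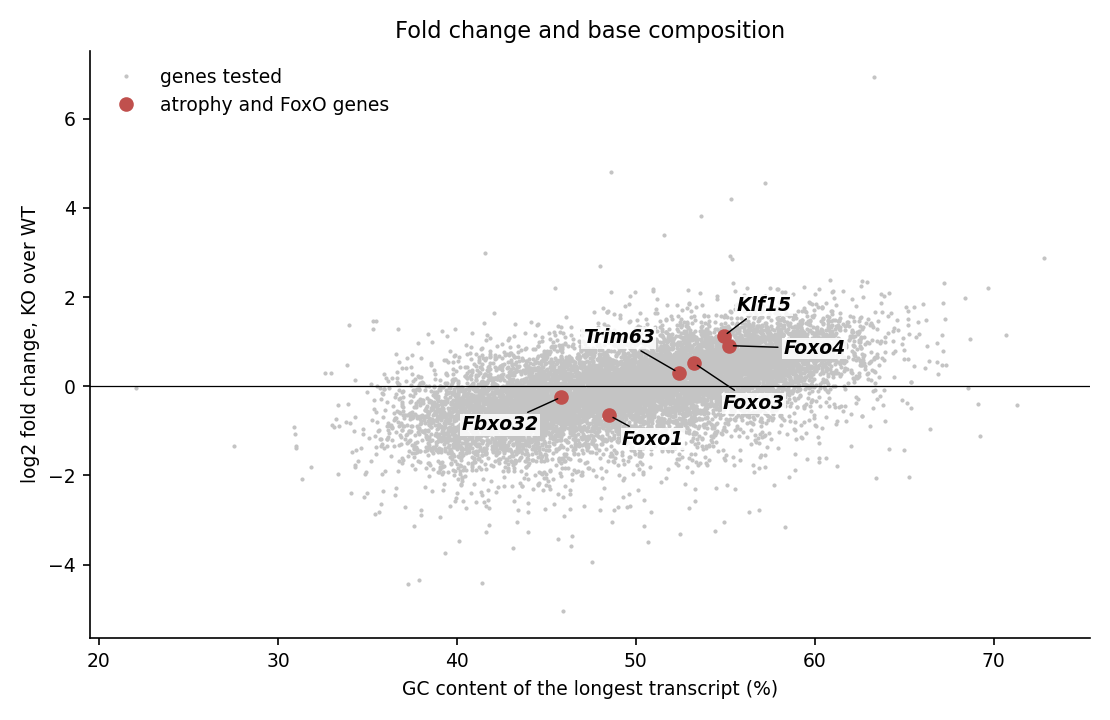
Log2 fold change, KO over WT, of each tested gene against the GC content of its longest transcript in percent, with the 6 tested atrophy and FoxO genes in red. The 6 genes span GC contents of 45.8 to 55.2% and log2 fold changes of -0.65 to 1.13, inside the cloud of all tested genes.

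Ubiquitin ligase genes of muscle moved in both directions. Of 25 listed and tested, Fbxo32 and Trim63 included, 10 (40%) rose and 7 (28%) fell by edgeR (median log2 fold change -0.03). With the trends removed 8 (32%) rose and 2 (8%) fell. Over all genes tested 26.2% rose and 25.2% fell, and with the trends removed 19.0% and 19.7%, and the counts of every list below are to be read against those shares. The median over all genes was -0.0059 as fitted and -0.0076 with the trends removed. Asb2, a cullin adaptor that targets filamins, averaged 496 ± 70.4 CPM in KO hearts and 221 ± 49.5 CPM in WT hearts (SD, n = 4 and 5). Its log2 fold change was 1.17 ± 0.16 (edgeR adjusted p = 5.83e-05). Klhl40, a cullin adaptor that stabilises thin filament proteins (1.49), and Trim54, the MuRF3 ligase and a close relative of Trim63 (1.03), also rose. Fbxo30, the MUSA1 ligase of muscle wasting (-1.45), and Cul1, the cullin scaffold of the ligase that Fbxo32 is a subunit of (-1.26), fell. Each of these 5 genes passed in the same direction with the trends removed, at smaller log2 fold changes. These were 0.49 for Asb2, 0.82 for Klhl40, 0.28 for Trim54, -0.68 for Fbxo30 and -0.87 for Cul1.

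Among 35 known FoxO target genes, 8 (22.9%) rose and 8 (22.9%) fell, near the shares of all genes (26.2% and 25.2%). After removal of the trends 6 (17.1%) rose and 5 (14.3%) fell, against 19.0% and 19.7% of all genes. The list median was -0.04 as fitted and 0.10 with the trends removed. Eif4ebp1, which encodes an inhibitor of cap-dependent translation, averaged 49.0 ± 4.24 CPM in KO hearts and 21.6 ± 3.38 CPM in WT hearts. Its log2 fold change was 1.15 as fitted and 1.27 with the trends removed. The autophagy genes Becn1 (0.79) and Map1lc3b (0.57) were higher too. The pseudokinase gene Trib1 (-0.72) and the cell cycle inhibitor gene Cdkn1a (-0.64) were lower, as was Fbxo30.

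Upstream of FoxO, in insulin, IGF1 and AKT signalling, 6 of 28 tested genes (21.4%) rose and 12 (42.9%) fell (median -0.21). Once the trends were removed 2 (7.14%) rose and 5 (17.9%) fell, against 19.0% and 19.7% of all genes, with a median of -0.0047. Igf1r, the IGF1 receptor gene, rose (0.34), a call that was lost without both shallow WT hearts (0.23) or when any heart but KO heart 1, WT heart 4 or WT heart 5 was left out (0.25 to 0.38 over all 9), while Pdpk1, the kinase that activates AKT (-1.11), the FoxO kinase gene Sgk1 (-0.67) and the AKT phosphatase gene Phlpp1 (-0.53) fell. Pdpk1 averaged 26.3 ± 4.76 CPM in KO hearts and 57.2 ± 8.64 CPM in WT hearts.

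Of 24 tested regulators and cofactors of FoxO proteins, 2 (8.33%) rose and 14 (58.3%) fell (median -0.51), against 2 (8.33%) and 8 (33.3%) with the trends removed (median -0.21). The 2 that rose in each fit were Prmt1, an arginine methyltransferase (1.19), and Sirt3, a mitochondrial deacetylase (0.91). Ywhaz and Ywhae encode adaptors that hold phosphorylated FoxO proteins in the cytoplasm. Ywhaz averaged 56.2 ± 16.1 CPM in KO hearts and 193 ± 51.1 CPM in WT hearts (log2 fold change -1.77, edgeR adjusted p = 2.46e-05), and with the trends removed the value was -1.47. Ywhae averaged 226 ± 57.7 CPM in KO hearts and 695 ± 211 CPM in WT hearts (-1.62, and -1.20 with the trends removed). Mapk8, which encodes the JNK1 kinase, fell as well (-1.21). Of the other listed adaptor genes of the Ywha family, Ywhah (-0.80) fell in both fits and Ywhab (-0.51) only as fitted. Ywhag (0.28) and Ywhaq (-0.13) passed in neither.

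Genes of the pathways known to drive Klf15 gave mixed counts. In the glucocorticoid list, 5 of 21 tested genes (23.8%) rose and 6 (28.6%) fell, near the shares of all genes, and after removal of the trends 5 (23.8%) rose and 7 (33.3%) fell. Zbtb16, a zinc finger factor induced by glucocorticoids, averaged 159 ± 14.4 CPM in KO hearts and 67.0 ± 18.7 CPM in WT hearts (log2 fold change 1.25). Fkbp5, the receptor co-chaperone (1.02), and the transcription factor gene Cebpb (1.88) also rose, and Errfi1, an inhibitor of the EGF receptor, fell (-1.47), as did Sgk1 and Cdkn1a, which the list also holds. Of 19 circadian clock genes, 6 (31.6%) rose and 9 (47.4%) fell, against 3 (15.8%) and 7 (36.8%) after removal of the trends. Per2 (1.02), Per3 (0.49) and the clock output gene Tef (0.91) were higher and Clock (-1.63), Hlf (-1.08) and Nr1d2 (-1.25) lower in KO hearts. No source used here gives the time of day at which hearts were taken.

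Downstream of Klf15, 9 of 20 tested metabolic and ion channel targets (45%) rose and 5 (25%) fell. Once the trends were removed 3 rose and 3 fell (15% each), against 19.0% and 19.7% of all genes. Subunits of the branched-chain keto acid dehydrogenase moved apart. Bckdha averaged 287 ± 42.4 CPM in KO hearts and 128 ± 28.8 CPM in WT hearts and rose (1.17), whereas Dbt (-1.26) and Bckdhb (-0.60) fell. Prodh, the first enzyme of proline breakdown (1.13), and Cpt1b, the muscle carnitine palmitoyltransferase (1.11), rose. Of 11 other tested Kruppel-like factor genes, 3 (27.3%) rose and 4 (36.4%) fell, and with the trends removed 0 rose and 3 (27.3%) fell (edgeR). Klf12 (-1.14), Klf3 (-1.03) and Klf7 (-1.10) were the 3 that fell in both fits.

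Around myostatin, 7 of 21 tested genes (33.3%) rose and 4 (19.0%) fell, against 6 (28.6%) and 2 (9.52%) with the trends removed. The list medians were 0.32 as fitted and 0.08 with the trends removed. Acvr2b, the main myostatin receptor gene, averaged 3.16 ± 0.585 CPM in KO hearts and 1.19 ± 0.543 CPM in WT hearts (log2 fold change 1.45, edgeR adjusted p = 8.29e-04). Acvr1b, a partner receptor, rose (0.83), as did Fstl3, a secreted myostatin inhibitor (2.0) at only 2.05 CPM in KO hearts and 0.576 CPM in WT hearts. Tll1, a tolloid-family protease, fell (-2.68) at a low level, with 0.302 CPM in KO hearts and 2.58 CPM in WT hearts. In bulk hearts, fewer cells of a type and less RNA per cell cannot be told apart for any of these genes.

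For each member the 2 genes most like it across the 9 hearts were named by the Pearson correlation of log2 CPM, as a description, among the 6850 tested genes that averaged 10 CPM or more. The 9 points share the genotype difference, the depth and the GC trends of their libraries. For Foxo4 they were 0610009O20Rik (r = 0.995) and Adssl1 (0.989), and for Klf15 they were Stat5b (0.980) and Adsl (0.971). For Foxo1 they were Zmym3 (0.984) and Tbcel (0.981), and for Foxo3 they were Cish (0.959) and Ehd4 (0.959). With the trends removed these 8 values ranged from 0.914 to 0.977. For the ligases they moved more. Fbxo32 was most like Fmo2 (0.947, and 0.845 with the trends removed) and Spock2 (0.946, and -0.0003). Trim63 was most like Dync1li2 (0.939, and 0.512) and Slc6a8 (0.908, and 0.207).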

How the data were processed

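Poly(A) RNA of 9 hearts (4 labelled KO, 5 WT) was sequenced single-end without strand, per the labels' protocols. The authors deposited read counts per gene, and an FPKM table of the same hearts. Build mm10 and the tools TopHat2 2.0.10, TopHat, Bowtie2, Cufflinks 2.1, HTSeq, edgeR and DESeq are named, per the submitters' processing notes. The annotation is not given in the sources used here. Counts were fitted as deposited with edgeR 4.0.16 in R 4.3.3 (TMM, default filter by group, quasi-likelihood F test, no covariate), with Benjamini-Hochberg adjustment over all genes tested and a threshold of 0.05. FPKM values averaging 0.5 or more were tested as log2(FPKM + 1) by limma 3.58.1 with a trended prior, a scale that understates the change of low genes. Within-heart measures used two-sided exact permutation tests.

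GC and length trends were lowess curves (span 0.3) of each heart over the longest GENCODE vM21 transcript, used as offsets, with GC values for 99.2% of tested genes. Alternatives included DESeq2 1.42.0, limma-voom, thinning, other filters and hearts left out. Depth was 4415183 to 20827699 reads per heart, and limits for 0 reads cover counting error only. The procedures were tested on simulated data in which few genes were changed. There GC slopes like those of these hearts were put on all genes, so by construction most calls of the fit without trend removal were unchanged genes. That share cannot be carried over to these hearts, where the number of changed genes and the origin of the slopes are not known. With the trends removed few calls were unchanged genes. Most 1.5-fold changes were missed in every fit tried, with or without GC slopes and their removal. Labels do not say that hearts came from separate litters or batches, so p-values measure only the spread between these hearts. The members and lists were chosen with earlier results of these data known. Named were the members, Foxo6, and from each list up to 3 higher and 3 lower genes with the smallest p called alike in both edgeR fits. Some genes so named are not reported, nor is the transcript of the targeted gene. Lists share genes.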

Additional observations from a re-analysis of the deposited data

Results flagged for a closer look

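Of 36 groups of values checked for a single heart apart from the rest, 1 stood out, where chance gives about 5%. WT heart 5 had 44.3 CPM of Foxo3, while the other WT hearts had 30.9 to 34.2 CPM. Its gap to the nearest heart was 0.753 of the range of the WT group. Without WT heart 5, Foxo3 passed the test with the trends removed.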

How the results depend on the processing

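Among values that answer a comparison, 449 of 500 recomputed under an alternative kept their direction and their side of the threshold (counts within 1.5 times), and 1573 of 1722 did so among other genes and lists. With nuclear reads thinned, 1157 genes passed as higher and 1183 as lower, 0 members passed as lower by edgeR, and the log2 fold changes were -0.45 for Foxo1 and 0.45 for Foxo3, neither past the threshold. That alternative leaves fewer reads. Foxo6 was then at 0.000994, of the opposite sign. Fbxo32 changed sign to 0.15 with GC and length trends removed, 0.071 with the GC trend alone removed and 0.24 with the trends and both shallow WT hearts removed, and Foxo3 missed the threshold in these fits (0.32, 0.25 and 0.26). In the last of these 2094 genes passed as higher and 2072 as lower. Trim63 passed by limma-voom (0.41). With single hearts left out, Trim63 ranged from 0.23 to 0.38 and Foxo3 with the trends removed from 0.25 to 0.41.

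In FPKM, median-centring gave 3214 genes as higher and 3593 as lower, 1 member as lower, -0.17 for Fbxo32 (opposite sign) and -0.55 for Foxo1 (then past the threshold). With single hearts left out, 511 (without KO heart 3) to 877 genes passed as lower and Foxo1 ranged from -0.12 to 0.014, positive without WT heart 1. The difference in Foxo3 share changed sign to 0.13 percentage points from counts with the trends removed and ranged from -1.49 to 2.11 with single hearts left out. The ligase log2 ratio changed sign to 0.078 with the trends removed. Without both shallow WT hearts the Foxo1 share differed by -8.53 points, the Foxo4 share by 9.98 and the ratio by -0.53, and with single hearts left out by -11.3 to -9.53, 8.43 to 11.6 and -0.67 to -0.47. With both shallow WT hearts or any 1 of WT hearts 1 to 4 left out, these 3 missed the threshold (adjusted exact permutation p of 0.0571 for the shares), where p cannot go below 0.0286 before adjustment. Without KO heart 3 the ratio missed it too (0.0714). The cause of the other changes was not tested.

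Replicate numbers did not pair the hearts, since deviations of same-numbered hearts correlated at -0.26 to 0.04. With the number as a replicate block, 2492 genes passed as higher and 2538 as lower, and with the trends also removed 1630 and 1899. Fbxo32 was then at 0.081 and Foxo3, with the trends removed, at 0.42 and past the threshold. Mstn had at most 8 reads in any heart, which limits its precision. The trends-removed folds with hearts left out were chosen after seeing the data.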
